A study of Mus musculus with 10 samples.

Results

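The genes described here are the collagen and laminin chains of the deposited table of mouse germ cell RNA, chosen by symbol alone: a collagen chain is Col, a number, a and a number (Col1a1), and a laminin chain begins with Lama, Lamb or Lamc and a digit. The rule found 46 chains among 15507 listed genes. They were grouped as 8 fibrillar collagens, 17 basement membrane chains (6 type IV collagens and 11 laminins) and 21 other collagens. A further 10 members of these families were not listed in the table, and none of them was a basement membrane chain: Col5a3, Col11a1 and Col24a1 among the fibrillar chains, and Col6a6, Col7a1, Col8a2, Col9a2, Col10a1, Col13a1 and Col21a1 among the others. RNA-Seq was performed on germ cells of 5 wild type (WT) mice and 5 GRTH Knock-In (KI) mice, all aged 45 days, as 1 poly(A) library per mouse, after their testes had been dissociated by collagenase and then trypsin. KI mice were homozygous for the human GRTH gene carrying a missense mutation from arginine to histidine, so that the targeted mouse gene is Ddx25, which encodes the testicular RNA helicase GRTH. WT mice carried no such allele. No sorting of the cell suspension is given in the sources used here.

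Collagens are secreted proteins in which 3 chains wind into a helix, and each turn of that helix needs a glycine, the smallest amino acid. Fibrillar collagens pack side by side into the banded fibres of connective tissue, whereas type IV collagens and laminins each assemble into a network, and the 2 networks together form the basement membrane, the thin sheet under epithelia. A laminin is a cross-shaped trimer of 1 alpha, 1 beta and 1 gamma chain. In the testis a basement membrane surrounds every seminiferous tubule between the Sertoli cells and the peritubular myoid cells, and fibrillar collagens lie in the outer wall and the interstitium, so these chains are known mainly as products of somatic cells.

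The classes differ in their coding sequences, which are shown first because the glycine repeat sets the collagens apart from the laminins and the classes of collagen from each other. For 8 chains that the results turn on, a stretch of coding sequence (GENCODE vM21) is given below, 60 bases from the start of the longest glycine repeat, or for Lamc3 from its first glycine codon, and capitals mark glycine codons (GGN).
Col1a1: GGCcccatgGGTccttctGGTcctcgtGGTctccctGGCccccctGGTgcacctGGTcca
Col1a2: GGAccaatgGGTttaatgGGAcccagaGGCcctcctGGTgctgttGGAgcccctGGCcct
Col3a1: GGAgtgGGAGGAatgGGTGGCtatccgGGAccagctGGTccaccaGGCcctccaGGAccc
Col4a1: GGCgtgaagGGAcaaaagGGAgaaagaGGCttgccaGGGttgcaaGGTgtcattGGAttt
Col4a3: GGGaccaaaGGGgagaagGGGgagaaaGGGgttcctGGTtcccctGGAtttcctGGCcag
Col6a1: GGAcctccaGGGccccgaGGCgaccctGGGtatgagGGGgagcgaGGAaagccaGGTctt
Col20a1: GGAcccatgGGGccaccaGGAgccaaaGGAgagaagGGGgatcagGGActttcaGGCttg
Lamc3: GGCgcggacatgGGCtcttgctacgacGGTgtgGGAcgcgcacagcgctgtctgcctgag
In the 7 collagens a glycine codon opened each triplet of codons over the stretch, and in Lamc3 glycine codons were placed without that spacing. All 46 chains had a coding sequence. In 7 of the 8 fibrillar chains the longest uninterrupted repeat ran for 338 to 344 triplets, and in Col27a1 for 217. In the 6 type IV collagens the longest run was 39 to 66 triplets, in 23 to 27 separate runs of at least 3 triplets, so that the repeat is broken many times along the chain. The type VI chains had runs of 37 to 87 triplets, and in the 11 laminins the longest run was 3 triplets or none was found.

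**Figure D1:**
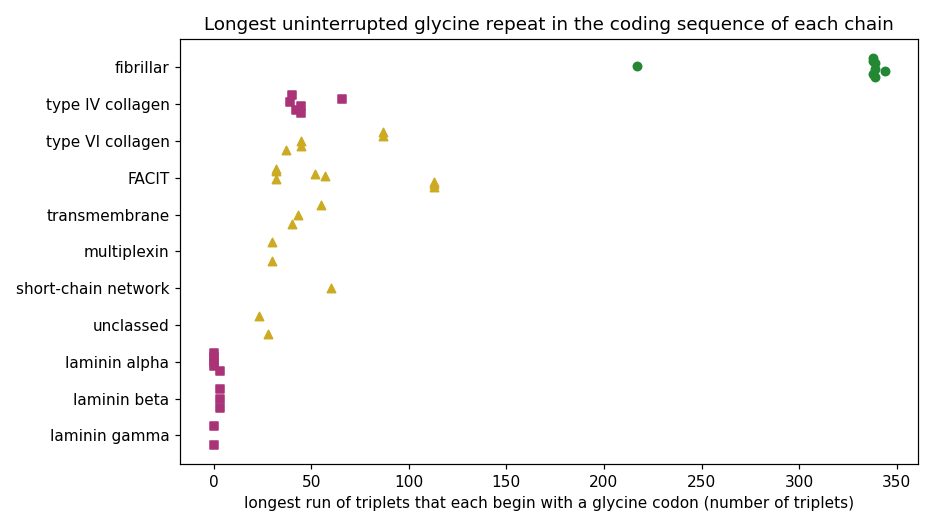
Longest uninterrupted run of triplets that each begin with a glycine codon (x axis, number of triplets) in the coding sequence of 45 of the chains, 1 point per chain, by family (y axis). The fibrillar chains stand at 217 and at 338 to 344 triplets, the type IV collagens at 39 to 66, and the laminins at 0 to 3.

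The 10 libraries held 13323024 to 16422347 reads on genes in WT and 12722086 to 15500582 in KI. Values are normalized counts, that is the reads of a gene divided by the DESeq2 size factor of the library, and 1 read was worth close to 1 normalized count. The chains together took 0.0444% to 0.0567% of the reads on genes in WT and 0.0676% to 0.0782% in KI, so all of them rest on a small share of the sequenced RNA. The targeted mouse gene separated the genotypes as labelled, with Ddx25 at 8231 ± 2209 normalized counts (SD, n = 5) in WT and 101 ± 91.7 in KI, a log2 fold change of -7.84 (limma adjusted p = 5.63e-05). Reads were mapped to the mouse genome, whereas KI mice carry the human gene, so these counts do not measure GRTH expression in KI. The study describes KI mice as lacking the phosphorylated form of the protein. KI 1, KI 2 and KI 3 still held 146, 194 and 161 normalized counts of Ddx25, whereas KI 4 and KI 5 held 2.88 and 1.84. Libraries 1 to 3 of each genotype had a lower mean read quality in the alignment summary of the study than libraries 4 and 5, so the called chains named here are also given within both sets. The label of germ cells was checked on markers. The spermatocyte marker Sycp3 stood at 2020 ± 521 in WT and 2079 ± 452 in KI, and the Leydig cell marker Insl3 at 6904 ± 1685 and 12289 ± 3367, so that RNA of somatic cells was present in every library beside that of germ cells. In such bulk samples, more cells of a type and more RNA per cell cannot be told apart.

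Of the 46 chains, all of which passed the filter on low counts, 15 were up-regulated in KI and 2 were down-regulated, and 29 were not called. Calls need both an adjusted p under 0.05 and a change of 1.5 times or more, and over all 15389 genes tested 6.13% were called up, 8.22% down and 14.4% in either direction. By adjusted p alone 17 chains were higher in KI and 3 lower, beside 9.65% and 13.3% of all genes. In 16 chains every KI library lay above every WT library, and in 1 every KI library lay below, beside 6.8% and 10.9% of all genes. The estimate was above 0 in 36 chains and below 0 in 10. The median log2 fold change of the chains was 0.49, against 0.03 over all genes. Scaling by library totals raised the median of all genes to 0.25 and that of the chains to 0.72, and it called 26 chains up and 1 down, beside 13.9% up and 5.13% down over all genes. edgeR's quasi-likelihood test and DESeq2 on the recovered reads, and limma with the replicate number as a block, each called the same 15 chains up and the same 2 down. Over all genes edgeR called 6.27% up and 8.29% down, DESeq2 6.62% and 8.39%, and the fit with the block 6.93% and 8.73%.

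**Figure D2:**
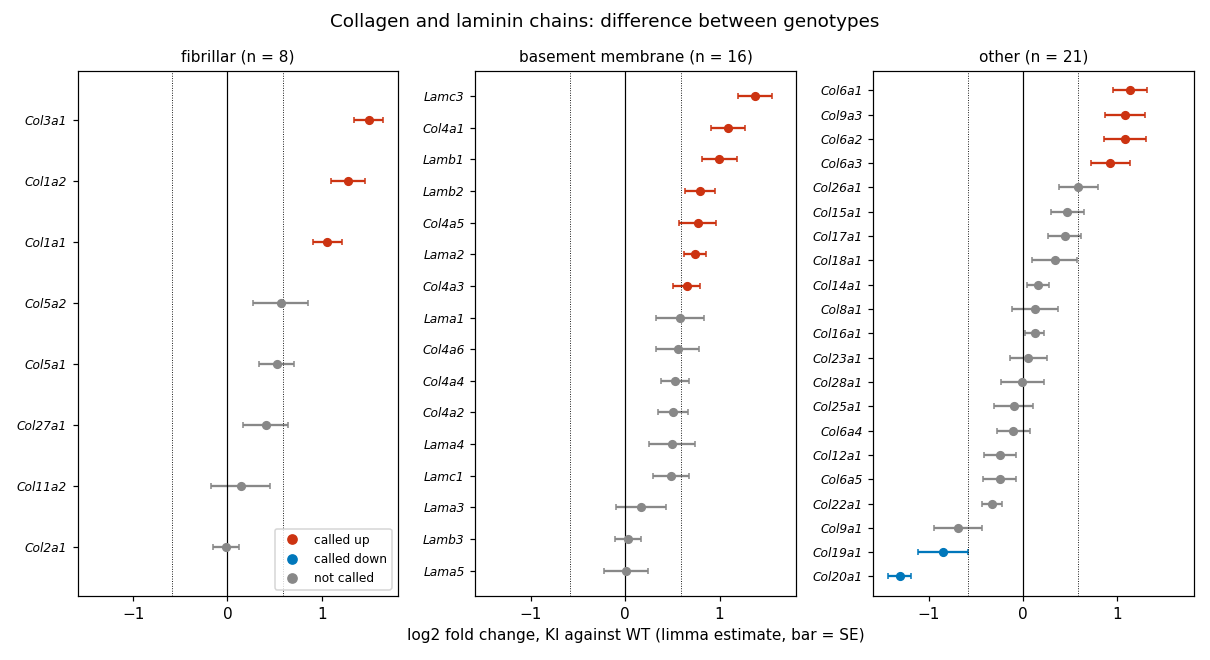
Log2 fold change of 45 of the chains, KI against WT (x axis, limma estimate, bars are SE, 5 libraries per genotype), in 3 panels by class, with dotted lines at a fold change of 1.5 in either direction. The 14 up-regulated chains plotted lie between 0.65 and 1.498, and the 2 down-regulated chains, Col20a1 and Col19a1, at -1.31 and -0.85.

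Among the fibrillar collagens the 3 chains of type I and type III collagen, the main fibres of soft connective tissue, were up-regulated, whereas Col2a1, the most abundant chain, was not called. Col1a1 (chr11:94936224-94953043, plus strand), the alpha 1 chain of type I collagen, had normalized counts of 84.7, 69.4, 80.9, 73.2 and 115 in WT libraries 1 to 5 and 153, 146, 181, 190.4 and 211 in KI. Every KI library exceeded every WT library, and the log2 fold change was 1.06 (SE 0.16, adjusted p = 1.67e-04 by limma). Col1a2 (chr6:4505618-4541544, plus strand), its partner chain in type I collagen, gave 146, 232, 208, 122 and 216 in WT and 414, 445, 459, 337 and 564 in KI. The genotypes again did not overlap, at a log2 fold change of 1.28 (SE 0.18, adjusted p = 1.00e-04 by limma), and KI 4 and WT 4 were the lowest library of their genotype. Col3a1 (chr1:45311538-45349707, plus strand), which forms type III collagen alone, gave 104, 117, 107, 81.2 and 135 in WT and 306, 307, 299.6, 238 and 393 in KI. It had the highest estimate of all 46 chains, 1.498 (SE 0.15, adjusted p = 5.28e-06 by limma). Col5a1, the type V chain that starts fibril growth, gave 201, 157, 229, 242 and 294 in WT and 272, 292, 242, 369 and 443 in KI. Its genotypes overlapped, and at 0.52 (SE 0.18, adjusted p = 0.0508 by limma) it missed both the adjusted p and the fold threshold. It was called with library totals (0.75) or upper-quartile factors, and without WT 5 (0.62) or without KI 3 (0.62).

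Col2a1 (chr15:97975602-98004725, minus strand), the chain of type II collagen, best known from cartilage, had the highest count of the fibrillar chains. Its normalized counts were 926, 958, 922, 995 and 1193 in WT and 875, 1020.3, 863, 1421 and 829.9 in KI. KI 4 was the highest library of all 10, KI 2 lay within the WT range, and KI 1, KI 3 and KI 5 lay below it. The estimate was -0.02 (SE 0.14, adjusted p = 0.943 by limma), and its sign changed with the scaling (0.21 with library totals). The 3 remaining fibrillar chains were low, with means of 11.5 to 27.3 in WT and 17.2 to 35.3 in KI, and none was called. They were Col5a2, the partner of Col5a1, and Col11a2 and Col27a1, both known from cartilage, with estimates of 0.14 to 0.56.

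All 17 basement membrane chains had an estimate above 0, also with library totals, TMM and upper-quartile factors, and 8 of them were up-regulated. Lama5, Lamb3 and Lama3 did not keep that sign under every alternative. The estimate of Lama5 was just below 0 with edgeR and DESeq2 (-0.04 and -0.03), and in libraries 4 and 5 alone it was -0.17 for Lama5, -0.23 for Lamb3 and -0.51 for Lama3. Leaving out WT 1 or WT 3 also turned Lama5 and Lamb3, leaving out KI 4 or KI 5 turned Lama5, and leaving out KI 3 turned Lama3. Among the 6 type IV collagens 3 were called, and 5 passed the adjusted p alone. Col4a1 (chr8:11198423-11312827, minus strand), the main chain of the network in most basement membranes, had 118, 147, 130.4, 132 and 223 in WT and 295, 315, 286, 252 and 448 in KI. The lowest KI library was above the highest WT library, and the log2 fold change was 1.09 (SE 0.18, adjusted p = 4.17e-04 by limma). Col4a2, which joins Col4a1 in 1 trimer and is transcribed in the opposite direction from the same start region, gave 136, 176, 170.3, 135 and 204 in WT and 215, 208, 208, 213 and 334 in KI. KI 1 to KI 4 lay just above the highest WT library, and KI 5 stood apart. Its log2 fold change of 0.51 (SE 0.16, adjusted p = 0.0308 by limma) was under the fold threshold. It passed with library totals (0.74) or upper-quartile factors, and without WT 5 (0.59).

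Col4a3, Col4a4 and Col4a5 form the trimer known from the filtering membrane of the kidney, and they are also found in tubule basement membranes of the testis. Col4a3 gave 48.1, 46.2, 49.5, 46.1 and 59.3 in WT and 69.9, 80.0, 92.7, 75.0 and 76.4 in KI, with no overlap, and a log2 fold change of 0.65 (SE 0.15, adjusted p = 0.00437 by limma). It was under the fold threshold with a pseudocount of 10 (0.57). For Col4a5 the counts were 26.2, 43.9, 41.1, 47.1 and 51.8 in WT and 79.6, 78.2, 59.7, 61.5 and 75.4 in KI, again without overlap, at 0.77 (SE 0.19, adjusted p = 0.00937 by limma). Col4a4 had means of 94.2 ± 17.3 (SD, n = 5) in WT and 135 ± 18.2 in KI. Its log2 fold change of 0.53 (SE 0.15, adjusted p = 0.0197 by limma) passed the adjusted p but not the fold threshold. It passed both with library totals (0.75) or upper-quartile factors, and without WT 5 (0.60). Col4a6, which pairs with Col4a5 in smooth muscle, was at 20.3 ± 5.59 in WT and 29.8 ± 5.04 in KI and was not called.

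The laminins held 5 up-regulated chains of 11, at least 1 of each kind. Lama2 (chr10:26981285-27616943, minus strand), the alpha chain of muscle laminin, gave 274, 345, 283, 271 and 341 in WT and 486, 459.7, 496, 471 and 617 in KI. The genotypes were apart, and KI 5 was the highest library, at a log2 fold change of 0.74 (SE 0.11, adjusted p = 2.20e-04 by limma). Lamb1 (chr12:31265293-31329645, plus strand), the beta chain of most laminins, gave 176, 240.5, 236, 115 and 237 in WT and 389, 355, 408, 322 and 479 in KI. No KI library overlapped the WT range, and the estimate was 1.00 (SE 0.19, adjusted p = 0.00119 by limma). Lamb2 (chr9:108479862-108490531, plus strand), the beta chain of synaptic and kidney laminin, gave 289, 406, 415, 315 and 456 in WT and 550.4, 662, 642, 514 and 895 in KI, at 0.79 (SE 0.16, adjusted p = 0.00199 by limma). Lamc3 (chr2:31887281-31949084, plus strand), a gamma chain with a narrow tissue range that includes the testis, gave 229, 348, 350.3, 174 and 302 in WT and 646, 726, 715, 579 and 896 in KI. Its lowest KI library, KI 4, was well above its highest WT library, WT 3, and at 1.37 (SE 0.18, adjusted p = 5.63e-05 by limma) it had the highest estimate of the basement membrane chains.

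Lama3, an alpha chain of skin, had means of 24.5 ± 7.43 in WT and 27.6 ± 9.35 in KI, and Lamb3, a beta chain of skin, of 115 ± 18.5 and 116 ± 9.77, and neither was called. Lamc1, the gamma chain of most laminins, had means of 120.2 ± 26.0 in WT and 172 ± 56.6 in KI and was not called, at 0.49 (SE 0.19, adjusted p = 0.0862 by limma). It passed with library totals (0.71) and without WT 5. The 3 remaining alpha chains, Lama1, Lama4 and Lama5, ranged from 50.01 to 146 in WT means and from 66.7 to 151 in KI means, and none was called. Lama1 is best known from embryonic membranes, Lama4 from vessels and Lama5 from epithelia. Lama5 had the estimate closest to 0 of the class.

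**Figure D3:**
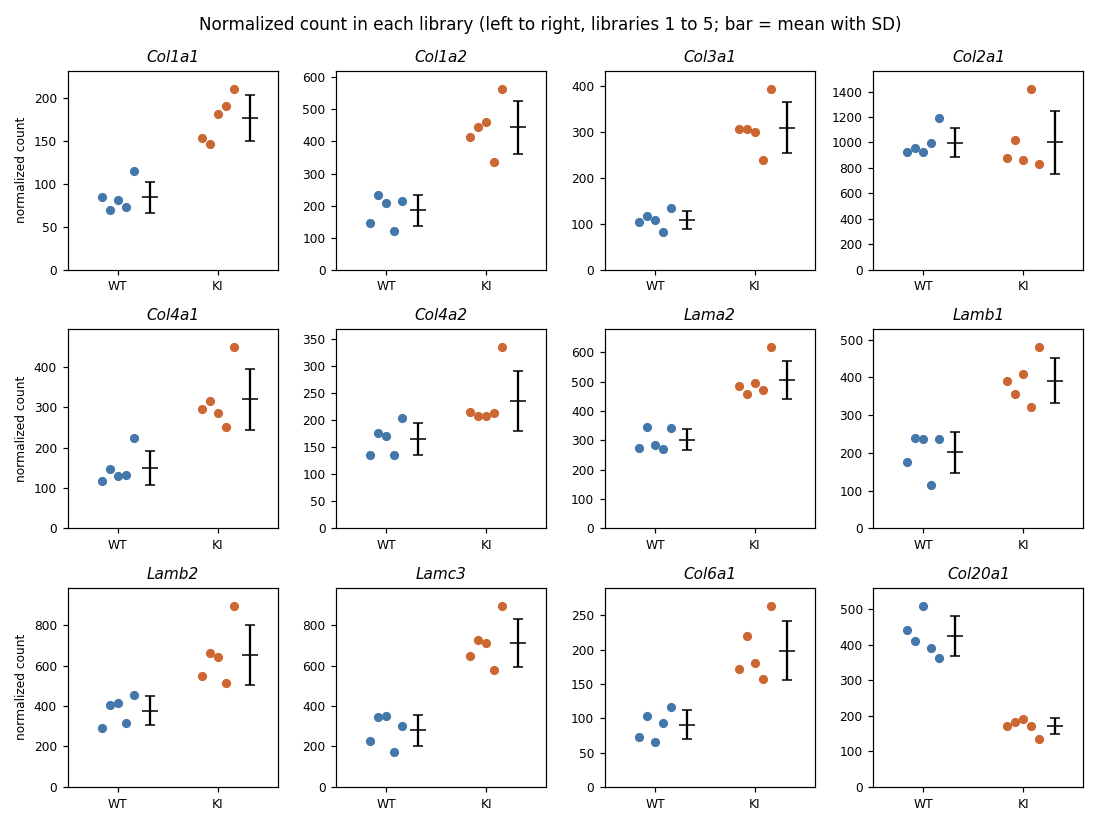
Normalized count (y axis, from 0) of 12 chains in WT and KI libraries 1 to 5, 1 point per library from left to right, with the mean and SD of each genotype beside the points. The KI points of 10 chains lie above all WT points, those of Col20a1 lie below, and those of Col2a1 overlap the WT points.

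The other collagens moved in both directions, with 4 chains up-regulated, 2 down-regulated and 15 not called. The up-regulated chains included the 3 that build the common form of type VI collagen, a beaded filament that links cells to the fibres around them. Col6a1 (chr10:76708792-76726045, minus strand) gave 73.2, 104, 65.2, 93.3 and 117 in WT and 173, 219.9, 181, 157 and 264 in KI, with no overlap and a log2 fold change of 1.13 (SE 0.18, adjusted p = 3.29e-04 by limma). Col6a2 gave 28.2, 40.5, 36.2, 50.2 and 75.3 in WT and 74.3, 98.2, 97.8, 95.2 and 104 in KI. WT 5 lay just above the lowest KI library, and the estimate was 1.08 (SE 0.22, adjusted p = 0.00237 by limma). For Col6a3 the counts were 42.9, 35.8, 37.4, 43.1 and 65.9 in WT and 85.0, 68.7, 62.8, 120.2 and 96.6 in KI, where WT 5 lay above KI 3, at 0.92 (SE 0.21, adjusted p = 0.00478 by limma). The alternative type VI chains, which can take the place of Col6a3, were not called: Col6a4 gave 408, 468, 414, 765 and 566 in WT and 372, 521, 471, 614 and 429 in KI, and its estimate of -0.10 (SE 0.17, adjusted p = 0.722 by limma) changed sign with library totals (0.13). Its highest library was WT 4 and its lowest KI 1, inside a wide overlap. Col6a5 had means of 92.5 ± 17.4 and 77.6 ± 14.6.

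The fibril-associated collagens with interrupted helices (FACIT), which sit on the surface of fibrils, held both down-regulated chains. Col20a1 (chr2:180986535-181017541, plus strand), a FACIT chain of little known function, gave 442, 410.4, 509.7, 392 and 362 in WT and 171, 183, 191, 172 and 133 in KI. The genotypes were far apart, it was the 1 chain whose KI libraries all lay below WT, and its log2 fold change was -1.31 (SE 0.12, adjusted p = 2.59e-06 by limma). Col22a1, the FACIT chain of tissue junctions and the chain with the highest count among the other collagens, gave 955, 929.6, 1114, 871 and 994 in WT and 775, 813, 796, 881 and 611 in KI. One KI library, KI 4, reached into the WT range, and the estimate of -0.33 (SE 0.11, adjusted p = 0.0356 by limma) passed the adjusted p but was under the fold threshold. It was -0.10 with library totals. Col16a1, a FACIT chain of several tissues, gave 565, 442, 478, 533 and 604 in WT and 568, 599, 599, 581 and 494 in KI, overlapping throughout, at 0.12 (SE 0.10, adjusted p = 0.455 by limma). Its estimate was -0.08 in libraries 4 and 5 alone.

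Col19a1 had 26.6 to 39.1 normalized counts in WT and 11.3 to 27.9 in KI, and at -0.85 (SE 0.26, adjusted p = 0.0302 by limma) it had the highest adjusted p of the called chains. The call was lost without WT 1, WT 2, WT 4, WT 5, KI 1 or KI 3, and with library totals. The 1 up-regulated FACIT chain was Col9a3, a type IX chain known from cartilage fibrils, which gave 51.3, 20.8, 38.6, 28.1 and 38.6 in WT and 73.4, 77.3, 72.1, 73.1 and 69.0 in KI. The KI libraries lay close together and all above WT, at 1.08 (SE 0.21, adjusted p = 0.00164 by limma). It shares 231 bases with Tcfl5 on the other strand, a gene at 6812 ± 609 in WT and 6175 ± 503 in KI, and no source used here says whether reads were counted by strand, so reads in the shared stretch cannot be assigned with certainty. Col9a1, its type IX partner, had means of 40.9 ± 10.4 in WT and 25.5 ± 8.59 in KI and was not called at -0.69 (SE 0.25, adjusted p = 0.0657 by limma). Col12a1 and Col14a1, which bind type I fibrils, had means of 181 ± 29.8 and 260.0 ± 32.9 in WT and 155 ± 37.9 and 289 ± 28.0 in KI, and were not called. The 8 other chains, Col15a1 and Col18a1 of the multiplexin type, the membrane-spanning Col17a1, Col23a1 and Col25a1, the network chain Col8a1, and Col26a1 and Col28a1, had means of 23.4 to 160.2 in WT and 24.5 to 199 in KI, with estimates from -0.10 to 0.58 and no call.

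Summed over each class, the basement membrane chains had the highest ratio of KI to WT. Their summed normalized count was 1889, 2444, 2279, 1977 and 2732 in WT libraries 1 to 5 and 3543, 3713, 3737, 3328 and 4953 in KI, a ratio of means of 1.70. The fibrillar sum was 1505, 1571, 1608, 1583 and 2016 in WT and 2114, 2266, 2105, 2634 and 2507 in KI, a ratio of 1.40. That ratio was 2.01 without Col2a1, a chain left out after its values were seen. Neither pair of sums overlapped between genotypes. The other collagens summed to 3799 ± 214 (SD, n = 5) in WT and 3640 ± 187 in KI, overlapping, and the ratio of 0.958 became 1.12 with library totals and 1.02 with upper-quartile factors. Within them the FACIT sum was 2472 ± 110 in WT and 2075 ± 180 in KI, where every KI library lay below WT, but the libraries overlapped with library totals (ratio 0.984) and upper-quartile factors (0.895). Among the basement membrane families the ratio was 1.67 for type IV collagens, 1.43 for laminin alpha, 1.68 for laminin beta and 2.20 for laminin gamma chains, each without overlap. Most of the rise in the mean laminin alpha sum (627 in WT, 894 in KI) was that of Lama2 (303 and 506). Of the 5 laminin alpha chains 4 were not called. Most of the rise in the laminin gamma sum was that of Lamc3 (281 and 712). No test was run on these sums, since the members were chosen with earlier results known.

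**Figure D4:**
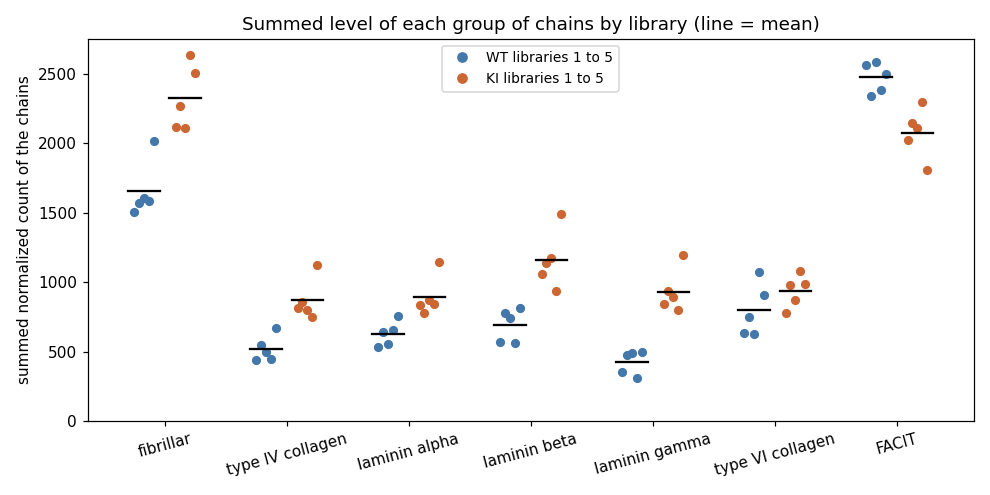
Summed normalized count (y axis, from 0) of the chains of 7 families in each library, with WT points on the left and KI points on the right of each family and a line at the mean. The KI libraries lie above all WT libraries for the fibrillar, type IV and laminin families, overlap them for type VI collagen (ratio 1.18), and lie below for FACIT.

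Per kb of exon, which allows chains to be compared with each other, Col2a1 was the highest chain in both genotypes, at 196 ± 22.1 normalized counts per kb in WT and 196 ± 48.1 in KI. In WT it was followed by Col22a1 (109 ± 10.1) and Col16a1 (101 ± 12.5), which did not differ beyond their spread, and then by Col20a1 (82.4 ± 10.96), Col6a4 (71.1 ± 20.2) and Lamb2 (66.8 ± 12.6), whose spreads overlap. In KI the chains after Col2a1 were Lamc3 (121 ± 20.2), Lamb2 (116 ± 26.4) and Col16a1 (109 ± 8.35), again within their spread. Lamc3 had been at 47.8 ± 13.2 per kb in WT. Col1a2 went from 34.6 ± 8.92 to 83.0 ± 15.4 per kb and Col20a1 reached 33.1 ± 4.34 in KI. The lowest chains per kb were Col5a2, Lama3 and Col11a2, at 1.74 to 2.56 in WT and 2.57 to 2.91 in KI.

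**Figure D5:**
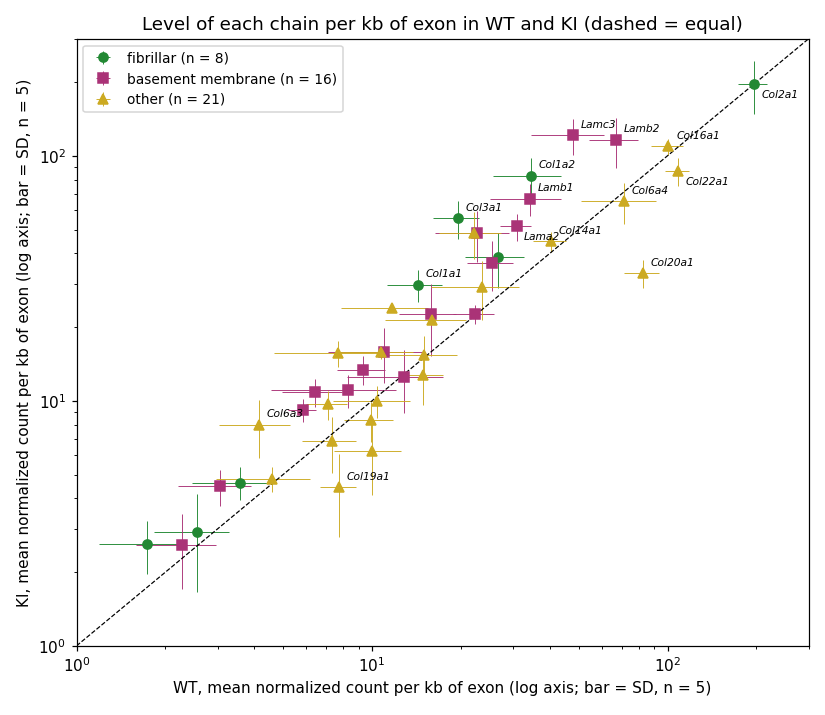
Mean normalized count per kb of exon of 45 of the chains in WT (x axis) and KI (y axis), both on log axes, with bars for the SD over 5 libraries and a dashed line at equal levels, by class. Col2a1 lies on the line at 196 in both genotypes, Lamc3 (47.8 in WT, 121 in KI) and Col3a1 (19.5 and 55.5) lie above it, and Col20a1 (82.4 and 33.1) lies below it.

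Chains that share a trimer or a gene pair need not change in step, and neither need laminin chains of the same kind. In all, 9 pairs of these sorts, chosen after the values were seen, were compared by the ratio of their levels per kb. This is a description, and no p-value is given, since the pairs were picked from the same values. The ratio of Col4a1 to Col4a2 was 0.885 ± 0.125 (SD, n = 5) in WT and 1.32 ± 0.114 in KI, and its highest WT library, at 1.06, was below its lowest KI library, at 1.16. The log2 difference of this ratio was 0.59 over all libraries, 0.79 in libraries 1 to 3 and 0.29 in libraries 4 and 5. Lamc3 and Lamc1 are both gamma chains, of which a laminin holds 1, so they do not share a trimer. The ratio of Lamc3 to Lamc1 was 3.09 ± 0.913 in WT and 5.64 ± 1.33 in KI, with WT libraries up to 4.11 and KI libraries from 4.32. In the other 7 pairs the genotypes overlapped. Col1a1 to Col1a2 was 0.432 ± 0.117 in WT and 0.366 ± 0.0832 in KI, and Col6a1 to Col6a2 was 3.04 ± 0.700 and 3.11 ± 0.532. Lamb1 to Lamc1 was 2.21 ± 0.598 and 3.12 ± 0.790. The ratios of Col4a3 to Col4a4, Col4a5 to Col4a6, Col6a1 to Col6a3 and Lamb2 to Lamb1, both beta chains, also overlapped.

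The type IV genes lie in 3 pairs, each transcribed in opposite directions from a shared start region. In the coordinates of the deposited table (mm10) Col4a4 and Col4a3 are 70 bases apart on chromosome 1, Col4a6 and Col4a5 are 1341 bases apart on chromosome X, and Col4a1 and Col4a2 overlap by 23 bases on chromosome 8. In each pair both estimates were above 0. Col3a1 and Col5a2 lie tail to tail with a gap of 24623 bases, and the first gene was called and the second was not. Col6a2 and Col6a1, 85160 bases apart, were both up-regulated, and Col9a3 and Col20a1, 364348 bases apart on chromosome 2, were called in opposite directions.

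Start regions are shown side by side for 3 of the up-regulated chains, from different chromosomes. They were picked from the chains called in these data, and other called chains are not shown. Each is the 250 bases before the RefSeq start (GRCm38.p6, plus strand), with capitals marking the CCAAT box, the GC box with the letters GGGCGG and the TATA box with the letters TATAAA, on either strand. Matches could overlap.
Col1a2, chr6:4505368-4505617: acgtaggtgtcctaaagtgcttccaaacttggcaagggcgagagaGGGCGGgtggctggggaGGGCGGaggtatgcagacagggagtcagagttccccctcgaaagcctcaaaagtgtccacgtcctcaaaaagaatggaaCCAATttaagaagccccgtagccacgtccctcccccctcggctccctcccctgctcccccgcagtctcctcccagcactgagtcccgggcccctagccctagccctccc
Col3a1, chr1:45311288-45311537: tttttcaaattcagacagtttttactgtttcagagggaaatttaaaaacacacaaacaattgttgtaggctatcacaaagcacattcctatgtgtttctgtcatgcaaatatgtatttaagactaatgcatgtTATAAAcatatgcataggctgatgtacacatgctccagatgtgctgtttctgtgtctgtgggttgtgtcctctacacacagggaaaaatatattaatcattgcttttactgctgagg
Lamb1, chr12:31265043-31265292: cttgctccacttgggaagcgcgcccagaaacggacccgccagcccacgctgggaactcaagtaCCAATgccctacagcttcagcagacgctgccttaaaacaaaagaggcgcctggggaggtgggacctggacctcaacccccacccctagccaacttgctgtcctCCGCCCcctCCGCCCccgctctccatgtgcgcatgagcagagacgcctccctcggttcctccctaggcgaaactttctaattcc
Col1a2 and Lamb1 each held 1 CCAAT box and 2 GC boxes, and Col3a1 held 1 TATA box and none of the other motifs, so no searched motif was shared by all 3 start regions. The RefSeq promoter table, whose windows run from 250 bases before to 50 after the start, held 35 windows for 31 of the 46 chains. The CCAAT box was found in 31.4% of the chain windows and 37.4% of all 32851 windows, the GC box in 57.1% and 35.7%, and the TATA box in 8.57% and 13.6%. The cAMP response element (letters TGACGTCA) was in 0 of the 35 chain windows and in 1.79% of all. A match is a stretch of letters and not a site of binding.

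Genes that act on collagens and laminins were counted in 7 lists. Of the genes that hydroxylate and glycosylate collagen inside the cell, 1 of 13 tested was up-regulated, P3h3 (1.24), a prolyl 3-hydroxylase, at 8.70 ± 2.47 normalized counts in WT and 21.8 ± 5.52 in KI. Among 11 chaperones and secretion factors 3 rose and 1 fell: Sec24d (0.87), a coat protein of transport vesicles, Serpinh1 (0.76), the collagen chaperone HSP47, and Fkbp10 (0.65), a folding factor, were higher in KI, and Sec23a, another coat protein, was lower (-0.99). Of 10 genes of procollagen processing and cross-linking 5 rose, with Adamts2 (1.09), which cuts off the amino end of procollagen, Loxl2 (0.95) and Loxl4 (0.70), which cross-link fibres, and Bmp1 (0.83), which cuts the carboxyl end, named as the 4 with the largest estimates. Loxl2 and Loxl4 were low, with means of 19.9 and 17.3 in WT and 40.8 and 28.4 in KI. The values in parentheses are log2 fold changes of the limma fit, each with an adjusted p under 0.05.

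On the outside of the cell, 5 of 12 fibril-associated proteins were up-regulated and 1 was down-regulated. The 5 include Dcn, which is counted again below among the interstitial fibroblast markers. The 4 largest rises were Fmod (1.58), Thbs2 (1.26), Bgn (1.09) and Eln (1.08), and the fall was Postn, periostin (-0.68). Fmod and Bgn are small proteoglycans that bind fibrils, and Eln is elastin. Fmod, Thbs2 and Eln were low, with means of 9.14, 8.60 and 10.0 in WT and 28.2, 21.6 and 21.3 in KI. The summed normalized counts of this list overlapped, at 3917 to 5138 in WT and 4492 to 6255 in KI. Among 13 other components of basement membranes 4 rose, Frem2 (1.499), Ntn4 (1.12), a netrin that binds laminin, Ntn1 (1.05) and Hspg2 (0.63). Hspg2 encodes the proteoglycan perlecan, and its WT libraries (267 to 598) and KI libraries (448 to 808) overlapped. Frem2 was low, at 14.2 ± 4.44 in WT and 40.9 ± 7.28 in KI. Both discoidin domain receptors, tyrosine kinases that bind collagen, were up-regulated among 8 collagen receptors: Ddr1 went from 164 ± 31.3 to 357 ± 32.6 (1.13) and Ddr2 from 48.8 ± 10.8 to 84.1 ± 20.5 (0.77). Of 9 laminin receptors 0 were called by limma, edgeR or DESeq2, and 2 had an unadjusted p under 0.05. In all 7 lists together 20 of 76 tested genes (26.3%) were up-regulated and 2 (2.63%) down-regulated, beside 6.13% and 8.22% of all genes. With 1 of 13 up, the hydroxylases and glycosyltransferases lay near that background.

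Markers of fibroblasts, macrophages and in part of Leydig cells were higher in KI, as the called basement membrane and fibrillar chains were, and their part in the result was not tested. Over all cell type lists together, germ cells included, 16 of 70 tested genes (22.9%) were up-regulated, beside 6.13% of all genes. Down-regulated were 6 of the 70 (8.57%), near the 8.22% of all genes. Of 6 tested interstitial fibroblast markers 4 were up-regulated, and their summed normalized count was 1192 to 2152 in WT and 2258 to 3606 in KI, without overlap. Among the defining markers Pdgfra went from 179 ± 50.8 to 405 ± 52.3 and Dcn from 408 ± 114 to 773 ± 226, and Lum, like Dpt and Thy1, was not listed. The 2 fibroblast markers that were not called lay on both sides of 0: Pi16 was at 59.8 ± 6.67 and 83.8 ± 17.9 (0.46), and Mfap5 at 60.1 ± 22.3 and 35.7 ± 13.04 (-0.74, limma adjusted p = 0.0905). Macrophage markers were up-regulated in 5 of 9, with sums of 777 to 1031 in WT and 1168 to 1587 in KI, and the defining markers Csf1r (0.78) and C1qa (0.90) were called and Adgre1 (0.51) was not. Leydig cell markers were up-regulated in 4 of 7, in 3 of 7 with edgeR, and in 6 of 7 with DESeq2 or the replicate block. Their sums overlapped, at 10875 to 19503 in WT and 15729 to 27046 in KI. Insl3 (0.82) and Cyp17a1 (0.70) were called and Star (0.58) was not.

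The somatic cells that lie on the tubule basement membrane gave other values. Of 10 Sertoli cell markers 0 were called by limma, edgeR or DESeq2 and 0 had an unadjusted p under 0.05, and their sums overlapped at 7552 to 11218 in WT and 7899 to 12002 in KI. Sox9 was at 177 ± 54.3 and 187 ± 26.4, Rhox5 at 72.3 ± 12.7 and 90.4 ± 33.6, and Fshr at 16.3 ± 5.26 and 20.9 ± 6.95. Of 7 tested peritubular myoid markers 2 were up-regulated, Des (1.04) and Acta2 (0.78), and 1 was down-regulated, Actg2 (-1.37). Des was low, at 11.9 ± 6.53 in WT and 24.2 ± 8.76 in KI. Actg2, at 3325 ± 686 in WT and 1279 ± 225 in KI, stood far above Acta2 (47.7 and 81.2). Which cells its RNA came from was not tested. The myoid sum, 3292 to 4831 in WT and 2077 to 2367 in KI, was mostly Actg2, so its fall is that of Actg2. Without Actg2 the sums overlapped, at 707 to 918 in WT and 872 to 1161 in KI, with a ratio of 1.19. Myh11 was at 47.6 ± 10.3 and 37.9 ± 4.97 and was not called, and Cnn1, at 6.53 ± 1.78 and 18.8 ± 7.82, did not pass the filter. Of 8 tested endothelial markers 1 was up-regulated, Cdh5 (0.66), with overlapping sums of 215 to 289 and 247 to 348. Pecam1 was at 20.3 ± 13.3 and 18.1 ± 3.68, and Kdr at 36.3 ± 10.4 and 39.2 ± 3.22.

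Among germ cell markers, 5 of 8 spermatid genes were down-regulated, and their sums were 159180.2 to 304264 in WT and 20488 to 50841 in KI. Tnp1 (-2.14) and Prm1 (-2.82) were called and Acrv1 (-0.48) was not. Spermatogonia and spermatocyte markers had 0 of 7 and 0 of 8 called by limma, edgeR or DESeq2, with 2 and 3 at an unadjusted p under 0.05 and overlapping sums. Zbtb16, Gfra1 and Stra8 had means of 121, 174 and 168 in WT and 155, 125 and 203 in KI, and Sycp1 and Spo11 of 2341 and 1155 in WT and 2341 and 874 in KI. Gfra1 (-0.48) and Spo11 (-0.41) passed the adjusted p but were under the fold threshold. No defining marker that was listed had a mean of 0 in either genotype.

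Within the libraries of lower read quality (1 to 3) all 15 up-regulated chains were called again, beside 3 further chains (18 in all, beside 7.2% of all genes called up and 8.76% down), and both down-regulated chains. Within libraries 4 and 5, with 2 against 2, 11 of the 15 and 1 of the 2 were called (beside 3.06% of all genes called up and 7.1% down), and the chains that were not included Col4a3, Col4a5, Col6a2 and Col19a1. The log2 fold changes in libraries 1 to 3 and 4 to 5 were 1.02 and 1.12 for Col1a1, 1.19 and 1.42 for Col1a2, 1.47 and 1.54 for Col3a1, and 1.18 and 0.96 for Col4a1. The other type IV chains gave 0.73 and 0.52 for Col4a3 and 0.97 and 0.46 for Col4a5. The laminins gave 0.68 and 0.83 for Lama2, 0.83 and 1.24 for Lamb1, 0.75 and 0.84 for Lamb2, and 1.19 and 1.65 for Lamc3. All 17 called chains had the same direction in both sets. They were called on all libraries together, so agreement within parts of the same libraries was largely given by that choice. Among the other collagens the values were 1.25 and 0.96 for Col6a1, 1.34 and 0.69 for Col6a2, 0.87 and 1.00 for Col6a3, 1.08 and 1.09 for Col9a3, -1.31 and -1.31 for Col20a1 and -1.04 and -0.56 for Col19a1. In limma the interaction of genotype and library set passed an adjusted p under 0.05 for 0 of the 46 chains, and 3 had an unadjusted p under 0.05.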

How the data were processed

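Paired reads had been mapped by the authors to mm10 (STAR) and assigned to RefSeq genes by Partek's E/M quantification. The deposited signal of a gene in a library is its count divided by the DESeq2 size factor. No aligner version was given in the sources used here. Columns not assigned to a library numbered 0. Dividing by the value of 1 read returned whole reads for 100% of values under 5000 reads (tolerance 0.02). For WT 4 that value is close to 1, so its low values alone could not show it.

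Genotypes were compared by limma (version 3.58.1, R 4.3.3) on log2(normalized count + 1) with a variance trend, after edgeR's filterByExpr (version 4.0.16) had kept 15389 genes, over which p-values were adjusted by Benjamini-Hochberg. Fold changes are on that scale, which understates those of low genes. edgeR and DESeq2 (version 1.42.0) on the recovered reads, other scalings, filters, pseudocounts (0.1 and 10) and thresholds, a replicate block and leaving out libraries were alternatives. Libraries were from separate mice, and replicates differed by more than sampling noise (chi-square over its degrees of freedom 2.67 to 46.4).

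The members and lists were chosen with earlier results of these data known. Values in every library are given for called chains whose mean reached 50 in the higher genotype, and for chains not called whose mean reached 300. Genes of other lists are named where called, at most 4 per list and direction, with the defining markers. Pi16 and Mfap5 were named after their values were seen. The values of 1 called chain are not reported here, and it is kept in the counts and sums. Libraries with the same number were checked for pairing: their deviations from the genotype means correlated with r of 0.306, 0.105, 0.280, 0.216 and 0.462. For numbers 1, 4 and 5 the WT and KI libraries were each other's best match, and for numbers 2 and 3 they were not. WT 3 correlated with a KI library of another number at 0.287. Pairing was thus not clear for every number, and the number was treated as a block in an alternative only. Exon lengths and coding sequences are from GENCODE vM21 and promoters from RefSeq (GRCm38.p6).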

Additional observations from a re-analysis of the deposited data

Results flagged for a closer look

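In 12 of the 92 groups of 5 libraries (46 chains in 2 genotypes) 1 library stood apart from the other 4, with a gap to its nearest neighbour above 0.71 of the whole range. For independent, normally distributed values such a gap arises in about 1 in 20 groups. The groups here share the same 10 libraries and are not independent, so that rate need not hold for them. In 5 groups that library was WT 5, always the highest: its normalized count was 1193 for Col2a1, where the next WT library was at 995, 223 for Col4a1 (next 147), 59.3 for Col4a3 (next 49.5), 65.9 for Col6a3 (next 43.1) and 166 for Lamc1 (next 116). In another 5 it was KI 5. That library was the highest of its genotype for Col4a2 at 334 (next 215), Lama2 at 617 (next 496), Lama4 at 84.6 (next 65.4) and Col25a1 at 68.1 (next 44.3), and the lowest for Col17a1 at 41.4 (next 54.8). The last 2 were Col26a1, at 48.7 in KI 1 (next 43.5), and Col28a1, at 53.0 in KI 2 (next 41.6). WT 5 and KI 5 carried the highest summed normalized count of all chains in their genotype, 8767 and 10930.1.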

How the results depend on the processing

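Over all 46 chains and their alternatives, 1091 of 1184 values kept the direction and the side of the threshold. A call was gained in 36 and lost in 14, and 43 changed sign, all 43 in 13 of the 29 chains that were not called. Called chains were picked for estimates away from 0 in these data, so that none of them changed sign was largely given by that choice. Among the chains given in every library, the sign of Col2a1 turned with library totals (0.21), upper-quartile factors (0.074), edgeR (0.0038), DESeq2 (0.0047) and without WT 5, KI 1, KI 3 or KI 5 (-0.15 to 0.047 on leaving out 1 library), that of Col6a4 with library totals (0.13), in libraries 1 to 3 (0.068) and without WT 4 (-0.195 to 0.044 on leaving out 1 library), and that of Col16a1 in libraries 4 and 5 (-0.083). Library totals gave 26 chains up and 1 down, with 5 fibrillar, 14 basement membrane and 7 other chains up, a median log2 fold change of 0.72, and log2 ratios of the class sums of 0.71 (fibrillar), 1.00 (basement membrane) and 0.16 (other), the last reversed, as with upper-quartile factors (0.030). The stricter filter, an adjusted p under 0.01, and libraries 4 and 5 alone each left 1 chain down, the filter because Col19a1 was then not tested, and libraries 4 and 5 called 5 basement membrane chains. Leaving out 1 library gave 15 to 20 chains up, 1 to 3 down, 3 to 4 fibrillar, 8 to 11 basement membrane and 4 to 5 other chains up, medians of 0.40 to 0.54 and class sum ratios of 0.44 to 0.57, 0.66 to 0.84 and -0.09 to -0.04. The count down was 1 without WT 2, WT 4, WT 5 or KI 3, where Col19a1 was lost, and 3 without KI 2, where Col9a1 was gained. The replicate block called 15 chains up and 2 down and changed no call of a chain.

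For the pathway lists, 20 up became 13 with the stricter filter or with the 0.01 threshold on adjusted p, 9 in libraries 4 and 5, and 16 to 21 on leaving out 1 library. The 2 down became 1 with library totals, upper-quartile factors, a pseudocount of 10 or an adjusted p under 0.01, and 1 to 2 on leaving out 1 library (1 without WT 1, WT 2, WT 3, KI 1, KI 2 or KI 3). For the cell type lists, 16 up became 6 in libraries 4 and 5, 10 with an adjusted p under 0.01 and 12 to 18 on leaving out 1 library, and 6 down became 10 in libraries 4 and 5 or by adjusted p alone and 6 to 8 on leaving out 1 library. The causes of these changes were not tested unless named. Chains with means near 20 normalized counts, such as Col19a1, rest on few reads, and 10 family members were not listed.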
